A study of Mus musculus with 8 samples.

Results

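A group of 10 genes that flank Ptgs1 on mouse chromosome 2 was followed in the gravid uterus: Ndufa8, Rbm18 and Mrrf before Ptgs1, and Pdcl, Rc3h2, Zbtb6, Zbtb26, Rabgap1, Strbp and Nek6 after it. They were chosen by position and not by their signal, and every probe set annotated to a single one of these symbols was taken, which gave 10 genes of 13121 and 26 probe sets of 28000. Uterine RNA was taken on gestational day 18.0 from 8 females, 4 wild-type and 4 Cox-1 KO, and each was hybridized to an Affymetrix mouse expression array of its own. The wild-type females were C57BL/6 and the Cox-1 KO females C57BL/6 x Sv129 by the sample labels, all aged 6 to 16 weeks. The study's methods give 129P2 for the second strain and a narrower range of ages. Per the methods, fetuses, fetal membranes and placentas had been removed. The deletion is carried in the germ line and so in all cells of the mouse. The signal of a probe set (a group of short oligonucleotides against a transcript) is the MAS5 signal, a linear brightness that the authors scaled to a target of 1000. A log2 difference below is always Cox-1 KO minus wild-type. Lists of 4 values run from replicate 1 to replicate 4 of a genotype.

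Ptgs1 encodes cyclooxygenase-1, which makes the prostaglandin precursor from arachidonic acid. A gene knocked out in 129-derived embryonic stem cells and then bred to C57BL/6 carries a stretch of 129 chromosome with it, because close neighbours are seldom parted from it by recombination. Genes in such a stretch can differ between knockout and wild-type mice through their own alleles, and a short oligonucleotide probe designed on one strain can bind the other strain's transcript less well. The 10 neighbours have different roles. Ndufa8 is an accessory subunit of mitochondrial complex I, Mrrf releases mitochondrial ribosomes after translation, and Rbm18 carries an RNA recognition motif. Pdcl is a phosducin-like co-chaperone in the assembly of G protein beta-gamma dimers. Rc3h2 (roquin-2) binds stem-loops of mRNA and promotes their decay. Zbtb6 and Zbtb26 are zinc-finger proteins with a BTB domain. Rabgap1 activates the GTPase of Rab proteins, Strbp binds double-stranded RNA in the male germ line and elsewhere, and Nek6 is a mitotic kinase.

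In the RefSeq gene table of GRCm38.p6, used here for gene order alone, 45 protein-coding genes run from Ndufa8 to Nek6. Of these, 28 are olfactory receptors, and all 28 protein-coding genes between Ptgs1 and Pdcl are of that family, so Pdcl was the first measured gene on its side. Mrrf was the first measured gene on the other. Morn5, Gpr21, Crb2 and Lhx2 also lie in the interval and had no probe set among those analysed. Lhx6 and Dennd1a lie there, were measured and are not among the 10.

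Some neighbours share a start region. RefSeq start windows (250 bases before to 50 after a start, build GRCm38.p6) were found for all 10 genes, 13 windows in all. The window of Zbtb26 and the first of Rabgap1 run on opposite strands and share 212 bases. Rabgap1 has a further window, chr2:37452004-37452303, that is not shared. The windows of Rbm18 and Mrrf are also on opposite strands and lie 207 bases apart. These are shown because Rbm18 had the smallest p of the 10 genes, while Mrrf, which starts beside it, serves as its closest comparison. Zbtb26 is shown for the stretch it shares with the first Rabgap1 window. Capitals mark, on either strand, the short letter runs described after the sequences.
Rbm18, chr2:36136655-36136954, strand -: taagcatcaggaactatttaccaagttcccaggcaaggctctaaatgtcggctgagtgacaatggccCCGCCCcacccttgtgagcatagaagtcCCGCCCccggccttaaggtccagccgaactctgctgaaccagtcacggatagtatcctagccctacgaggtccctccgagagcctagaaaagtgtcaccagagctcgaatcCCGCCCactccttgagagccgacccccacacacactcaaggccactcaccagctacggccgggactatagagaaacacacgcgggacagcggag
Mrrf, chr2:36136148-36136447, strand +: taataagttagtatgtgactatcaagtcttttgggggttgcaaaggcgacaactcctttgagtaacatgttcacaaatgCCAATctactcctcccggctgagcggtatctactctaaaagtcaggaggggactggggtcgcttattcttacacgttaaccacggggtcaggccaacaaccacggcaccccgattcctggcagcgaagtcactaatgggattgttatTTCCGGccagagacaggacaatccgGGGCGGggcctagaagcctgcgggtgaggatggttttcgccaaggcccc
Zbtb26, chr2:37443123-37443422, strand -: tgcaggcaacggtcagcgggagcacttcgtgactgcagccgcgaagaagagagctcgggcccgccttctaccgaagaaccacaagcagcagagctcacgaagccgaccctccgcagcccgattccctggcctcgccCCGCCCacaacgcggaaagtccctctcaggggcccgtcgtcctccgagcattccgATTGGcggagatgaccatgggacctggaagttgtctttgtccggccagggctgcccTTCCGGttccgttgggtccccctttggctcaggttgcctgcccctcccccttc

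GGGCGG, the core of a GC box, stood in 10 of the 13 windows and 8 of the 10 genes, against 35.7% of all 32851 windows in the table. The run CCGGAA, which is the core of many Ets sites, stood in 5 windows (14.9% of all). CCAAT, the core of the CCAAT box, stood in 6 windows (37.4% of all). TATAAA, the core of the TATA box, stood in 1 window, of Nek6 (13.6% of all). The runs were counted separately, so a base may belong to more than 1. The Zbtb26 window overlaps the first Rabgap1 window, and the Nek6 windows overlap each other. The same match can therefore count in more than 1 window. The Rbm18 window held the GC box core 3 times and none of the other runs, while the Mrrf and Zbtb26 windows held each of the first 3 runs once. Such a match is a description of letters only. The median GC content was 64.0% for the windows of the 10 genes and 52.7% over all windows. Sequences of the array probes and of 129 alleles were not used here.

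Ptgs1 itself, whose probe set is named by the study's additional file, had signals of 7048, 10610, 10756 and 10508 in wild-type and of 88, 122, 76 and 136 in Cox-1 KO uterus. The genotype labels therefore held on all 8 arrays. The markers of uterine smooth muscle (6 of 6 measured, summed signal of 198873 to 226858 in wild-type and 208396 to 227590 in Cox-1 KO) and of endometrium (4 of 4 measured, 39640 to 44759 and 34421 to 40299) were present on every array. Of 10 yolk sac markers 9 were measured, with a summed signal of 29515 to 243615 in wild-type and 39806 to 340578 in Cox-1 KO uterus. Wild-type replicate 4 and Cox-1 KO replicates 1, 3 and 4 were the arrays high in them, so this list moved partly with genotype. Plasma cell markers (3 of 3 measured) summed to 6048 to 25236 in wild-type and 58563 to 63528 in Cox-1 KO uterus, the only 1 of 9 marker lists whose ranges did not overlap. What the plasma cell list adds to the values of the 10 genes was not tested, and the fits that bear on yolk sac markers are given with Rbm18 and Nek6. In bulk tissue, fewer cells of a type and less RNA per cell cannot be told apart.

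All 26 probe sets passed the filter, which asks for 4 arrays at a signal of at least 100, and none of the 10 genes differed between the genotypes at an adjusted p under 0.05 (limma, Benjamini-Hochberg over 26444 probe sets). Over all of those probe sets, 3 (0.0113%) passed. At an unadjusted p under 0.05 there were 3 of the 26 (11.5%), against 8.81% of all probe sets tested. Of these 3, 2 were lower in Cox-1 KO uterus (5.12% of all were called lower) and 1 was higher (3.69% of all). These were 1 probe set each of Rbm18, Strbp and Nek6. They were also the 3 whose arrays did not overlap between the genotypes (11.5%, against 4.41% of all). The count of 3 at an unadjusted p depended on single arrays. Leaving out wild-type replicate 3 made it 7, leaving out Cox-1 KO replicate 2 made it 6 and leaving out Cox-1 KO replicate 4 made it 5. The count of probe sets that did not overlap became 6, 5 and 5 with the same arrays removed. Removing an array can only keep or raise that count. The adjusted count stayed at 0 each time. The shares over all probe sets were not recomputed for these fits, so the higher counts cannot be set against them.

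**Figure D1:**
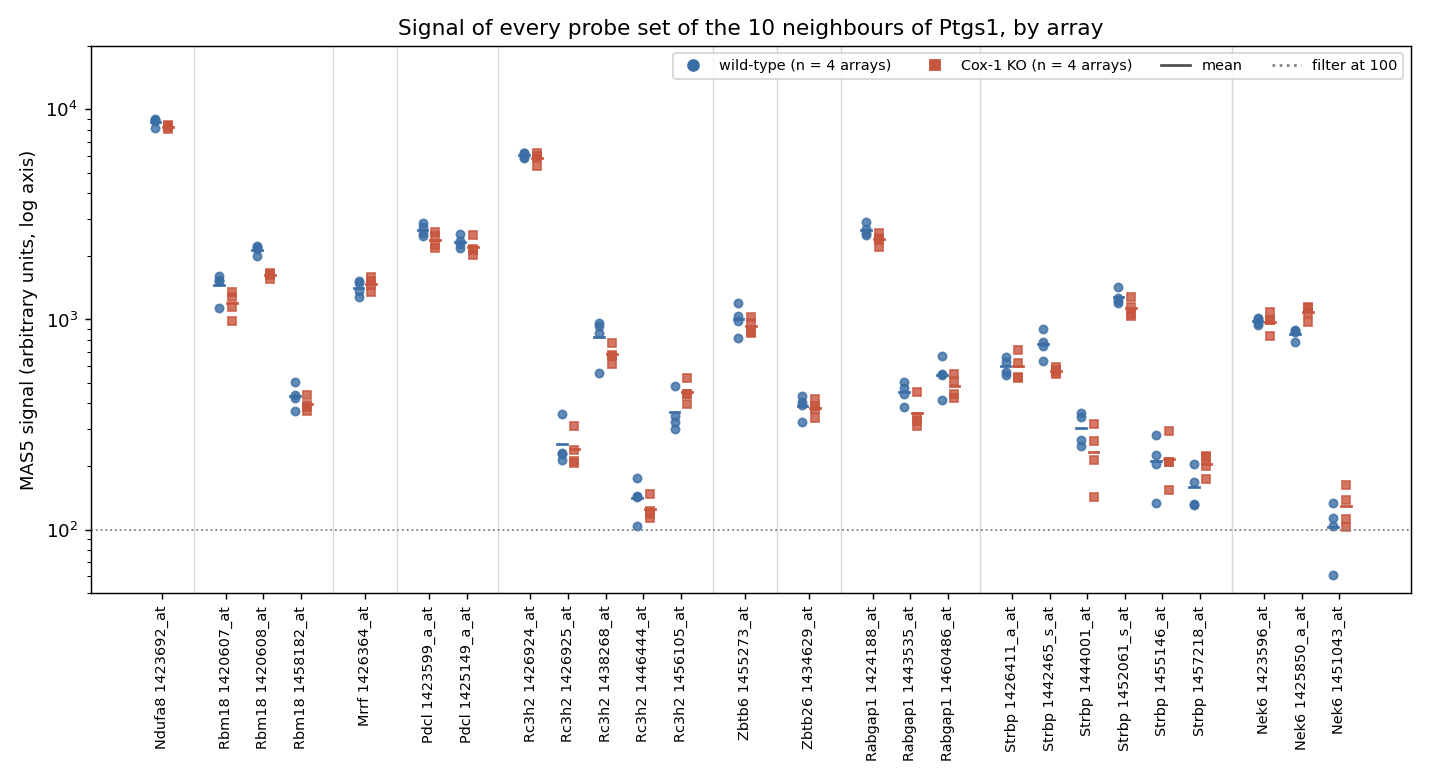
MAS5 signal (log axis) of the 26 probe sets of the 10 genes, in chromosome order from left to right, with 1 point for each array (n = 4 wild-type, circles; n = 4 Cox-1 KO, squares) and a bar for the mean. The groups overlap for every probe set except Rbm18 1420608_at, Strbp 1442465_s_at and Nek6 1425850_a_at, and the dotted line is the signal of 100 used as the filter.

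The lower sign was the more common, at 20 of 26 probe sets (76.9%), while 57.5% of all probe sets had a negative log2 difference. The median log2 difference of the 26 was -0.10, against -0.03 over all probe sets. With quantile normalization or median centring Strbp 1426411_a_at turned positive, and 19 of 26 (73.1%) were lower, against 56.2% and 54.3% of all. No neighbour had a log2 difference beyond 0.5 in either direction. The range was -0.42 to 0.38, and the median size was 0.16, against 0.11 over all. Of the 26 probe sets of the neighbours, 17 had a mean signal under 1000. Their median size was 0.16, against 0.15 over all probe sets under 1000. For the 9 at 1000 or more it was 0.15, against 0.07 over all probe sets at that signal. The 95% intervals bound what 4 arrays against 4 could miss: 25 of the 26 lay within 1 on the log2 scale in both directions, and 12 lay within 0.5. The exception at 1 was Nek6 1451043_at, whose interval ran from -0.33 to 1.06. Probe sets of the same gene share their transcripts, so these counts are not over independent measurements. Cox-1 KO and wild-type mice differed in strain background, in the alleles carried along with the deletion and in Ptgs1 itself, and these cannot be told apart in any comparison here.

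**Figure D2:**
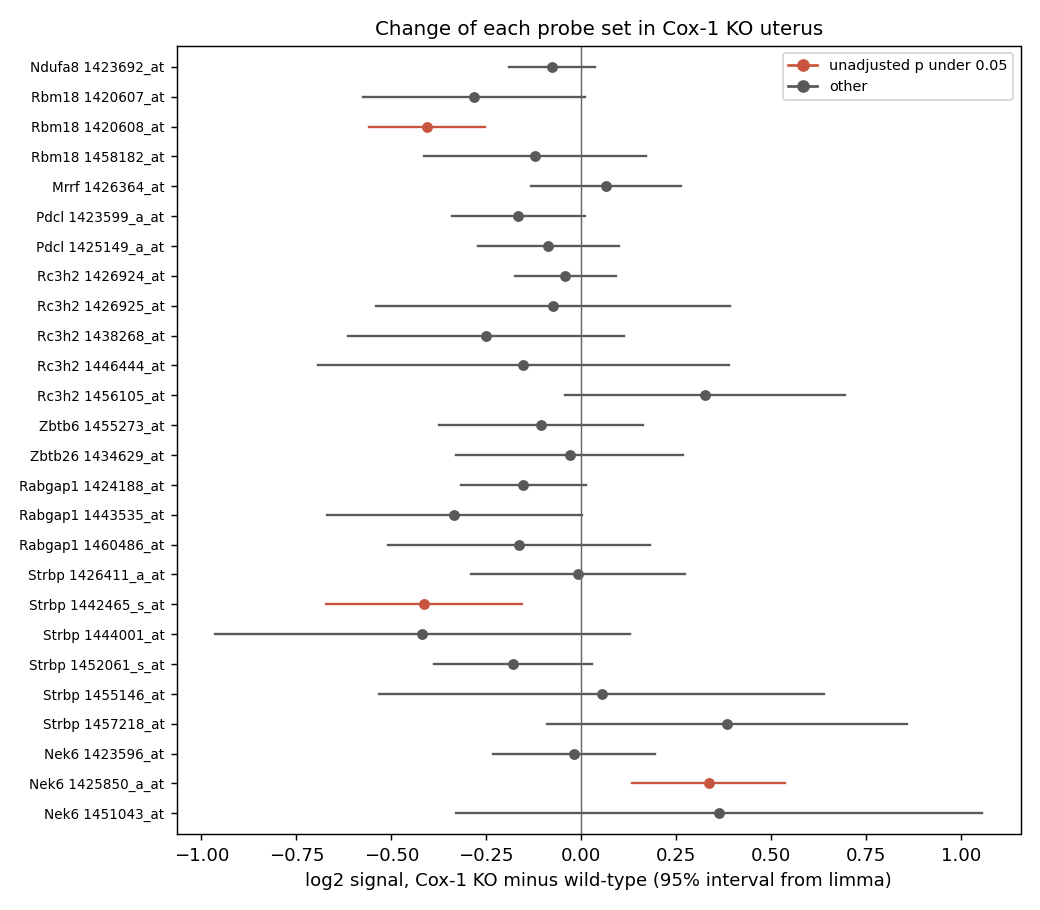
Log2 difference of signal, Cox-1 KO minus wild-type, for each of the 26 probe sets with its 95% interval from limma (n = 4 arrays per genotype). The coloured probe sets, at -0.41 for Rbm18 1420608_at, -0.41 for Strbp 1442465_s_at and 0.34 for Nek6 1425850_a_at, have an unadjusted p under 0.05, and none passes after adjustment.

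Rbm18, the RNA-binding protein gene next but one to Ptgs1 among measured genes, was the neighbour with the smallest p. On probe set 1420608_at its signal was 2173, 1998, 2226 and 2207 in wild-type and 1665, 1557, 1646 and 1620 in Cox-1 KO uterus. No Cox-1 KO array reached the wild-type range, and the spread within a genotype was small beside the gap. The means were 2151 ± 104 and 1622 ± 47.1 (SD, n = 4 each), so the Cox-1 KO mean was 75.4% of the wild-type mean. The log2 difference was -0.41 (standard error 0.069, 95% interval -0.56 to -0.25), with limma adjusted p = 0.107, the 26th smallest p of 26444 probe sets. The exact permutation test gave p = 0.0286 (two-sided), the smallest that 4 arrays against 4 allow. With the level of yolk sac markers as a covariate the log2 difference was -0.45. It was also -0.45 without the 4 arrays high in them, where a single Cox-1 KO array remains.

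The other probe sets of Rbm18 were less clear. Probe set 1420607_at, designed on the same database sequence, had 1616, 1545, 1137 and 1531 in wild-type and 988, 1358, 1284 and 1152 in Cox-1 KO uterus, and wild-type replicate 3 lay within the Cox-1 KO range. Its log2 difference was -0.28 (95% interval -0.57 to 0.01, limma adjusted p = 0.572). With the yolk sac covariate it was -0.22, and without the 4 arrays it was -0.06. The dimmer 1458182_at, from another sequence, had 367 to 502 in wild-type and 367 to 438 in Cox-1 KO uterus, a log2 difference of -0.12 (adjusted p = 0.812). All 3 probe sets thus had the same sign, with intervals of the latter pair that include 0.

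Mrrf, which starts beside Rbm18 on the opposite strand, had the opposite sign, and the difference between the genes was not tested. Its signal was 1530, 1494, 1272 and 1362 in wild-type and 1451, 1346, 1600 and 1522 in Cox-1 KO uterus. The groups overlapped over most of their range. The log2 difference was 0.07 (95% interval -0.13 to 0.26, limma adjusted p = 0.853). Ndufa8, the complex I subunit further out on that side, had 8856, 9032, 8770 and 8149 in wild-type and 8371, 8058, 8343 and 8229 in Cox-1 KO uterus. Its log2 difference of -0.08 had the narrowest interval of the 26, from -0.19 to 0.04 (adjusted p = 0.684).

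On the other side of Ptgs1, beyond the olfactory receptors, the signals of Pdcl, Rc3h2, Zbtb6, Zbtb26 and Rabgap1 overlapped between the genotypes on all 12 probe sets. Pdcl 1423599_a_at had 2764, 2586, 2485 and 2869 in wild-type and 2483, 2271, 2184 and 2612 in Cox-1 KO uterus, a log2 difference of -0.17 (95% interval -0.34 to 0.01, limma adjusted p = 0.578). Its other probe set gave -0.09. Cox-1 KO replicate 4 was the brightest of its group on both.

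Rc3h2, with 5 probe sets, ranged from -0.25 to 0.33. The brightest, 1426924_at, had 5842 to 6186 in wild-type and 5343 to 6192 in Cox-1 KO uterus, with a log2 difference of -0.04 (95% interval -0.17 to 0.09, limma adjusted p = 0.864). The value of 0.33 belonged to 1456105_at, with 349, 327, 483 and 300 in wild-type and 441, 395, 528 and 444 in Cox-1 KO uterus (adjusted p = 0.598). Of its 5 probe sets it was the only one with a positive sign. The value of -0.25 belonged to 1438268_at, with 557, 930, 958 and 862 in wild-type and 675, 770, 615 and 668 in Cox-1 KO uterus. Wild-type replicate 1 was there the lowest array of all 8, and without it the log2 difference was -0.43.

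Zbtb6 had 813 to 1195 in wild-type and 866 to 1026 in Cox-1 KO uterus (log2 difference -0.11, limma adjusted p = 0.819). Zbtb26 had 325 to 432 and 341 to 418 (-0.03, adjusted p = 0.964), with the Cox-1 KO range inside that of wild-type. Rabgap1, whose first start window overlaps that of Zbtb26, was negative on all 3 probe sets, at -0.15, -0.33 and -0.16. Its brightest probe set, 1424188_at, had 2910, 2566, 2526 and 2693 in wild-type and 2215, 2580, 2445 and 2386 in Cox-1 KO uterus, where only Cox-1 KO replicate 2 reached into the wild-type range (95% interval -0.32 to 0.01, adjusted p = 0.583). On 1443535_at, with 383 to 503 in wild-type and 312 to 453 in Cox-1 KO uterus, Cox-1 KO replicate 3 alone did so. None of the intervals of Rabgap1 and Zbtb26 excluded 0.

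Strbp, the double-stranded RNA-binding protein gene, had 6 probe sets with log2 differences from -0.42 to 0.38. Probe set 1442465_s_at had 783, 898, 633 and 749 in wild-type and 562, 550, 576 and 596 in Cox-1 KO uterus. The Cox-1 KO arrays all lay below the lowest wild-type array and close together (571 ± 19.8, SD, n = 4, against 766 ± 109 in wild-type). The log2 difference was -0.41 (95% interval -0.67 to -0.16, limma adjusted p = 0.426). The exact permutation test gave p = 0.0286, as it does for any probe set whose groups do not overlap. The ending _s_at is the maker's mark for probes that also match another transcript, so this signal may not be of Strbp alone. The same limit holds for 1452061_s_at, the brightest probe set of Strbp.

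The other probe sets of Strbp overlapped between the genotypes. The brightest, 1452061_s_at, had 1265, 1425, 1200 and 1229 in wild-type and 1060, 1277, 1044 and 1142 in Cox-1 KO uterus, a log2 difference of -0.18 (limma adjusted p = 0.603). Probe set 1426411_a_at, designed on the same database sequence, gave -0.01 with 546 to 660 and 526 to 715. The dim 1444001_at gave -0.42 with a wide interval (-0.96 to 0.13), with 250 to 360 in wild-type and 143 to 320 in Cox-1 KO uterus. Without Cox-1 KO replicate 1, the array at 143, it was -0.20. The dimmest, 1457218_at, went the other way at 0.38, with 131 to 205 in wild-type and 174 to 225 in Cox-1 KO uterus (95% interval -0.09 to 0.86). The last, 1455146_at, gave 0.05.

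Nek6, the mitotic kinase gene and the farthest of the 10 on its side, had log2 differences of -0.02, 0.34 and 0.36 on its 3 probe sets, none of which passed. Probe set 1425850_a_at had 880, 780, 892 and 875 in wild-type and 1150, 973, 1075 and 1129 in Cox-1 KO uterus. All of the Cox-1 KO arrays exceeded the brightest wild-type array, with means of 1082 ± 79.1 and 857 ± 51.7 (SD, n = 4 each), and the Cox-1 KO mean was 126% of the wild-type mean. The log2 difference was 0.34 (95% interval 0.13 to 0.54, limma adjusted p = 0.421). The exact permutation test gave p = 0.0286, which follows from the lack of overlap. Probe set 1423596_at, at 1010, 1015, 963 and 944 in wild-type and 1082, 992, 989 and 834 in Cox-1 KO uterus, gave -0.02 (95% interval -0.23 to 0.19, adjusted p = 0.97). The third, 1451043_at, was at the edge of the filter, with 104, 114, 61 and 134 in wild-type and 164, 139, 113 and 103 in Cox-1 KO uterus, and gave 0.36. This fell to 0.13 without wild-type replicate 3, the array at 61, and to 0.19 with signals under 100 set to 100. For 1425850_a_at the log2 difference was 0.26 with yolk sac markers as a covariate and 0.20 without the 4 arrays high in them, where a single Cox-1 KO array remains.

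To ask whether probe sets of a gene changed unequally, the log2 difference between both probe sets was taken on each array and compared between the genotypes, for every gene with 2 to 12 tested probe sets. Such an unequal change can come from a splice form or from probes that bind an allele unequally, and neither was tested. Of the neighbours, 6 genes had more than 1 probe set, which made 35 pairs. None passed an adjusted p under 0.05 with limma, and none of all 16679 pairs did (0%). At an unadjusted p under 0.05 there were 8 of the 35 pairs (22.9%), against 5.69% of all pairs. Of the 35 pairs, 33 included a probe set with a mean signal under 1000, and all 8 were among these (24.2%, against 7.04% of all such pairs). Pairs that share a probe set are not independent, and the 8 came from 3 genes. Leaving out single arrays gave counts of 3 to 10. It fell to 3 when wild-type replicate 2 or Cox-1 KO replicate 1 was removed, to 4 for wild-type replicate 1 or Cox-1 KO replicate 3 and to 5 for wild-type replicate 4.

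Rc3h2 1456105_at took part in 3 of the 8 pairs and Strbp 1457218_at in another 3, and both are dim probe sets with a positive sign in a gene whose brighter probe sets are near 0 or negative. The pair with the smallest p was Strbp 1442465_s_at with 1457218_at, whose log2 changes of -0.41 and 0.38 differed by -0.80 (95% interval -1.34 to -0.25, limma adjusted p = 0.839). For Nek6, 1423596_at and 1425850_a_at differed by -0.35 (95% interval -0.63 to -0.08, limma adjusted p = 0.839). This was the only one of the 35 pairs in which the arrays did not overlap between the genotypes (2.86%, against 3.15% of all pairs), so its exact permutation p was 0.0286. For Rbm18, 1420607_at minus 1420608_at was 0.12 (95% interval -0.25 to 0.50), and 1420608_at minus 1458182_at was -0.29 (95% interval -0.60 to 0.02). The 4 pairs designed on the same database sequence, 1 each of Rbm18, Rc3h2, Strbp and Nek6, held none of the 8. The pairs of Pdcl and Rabgap1 held none either, with differences of -0.17 to 0.18.

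**Figure D3:**
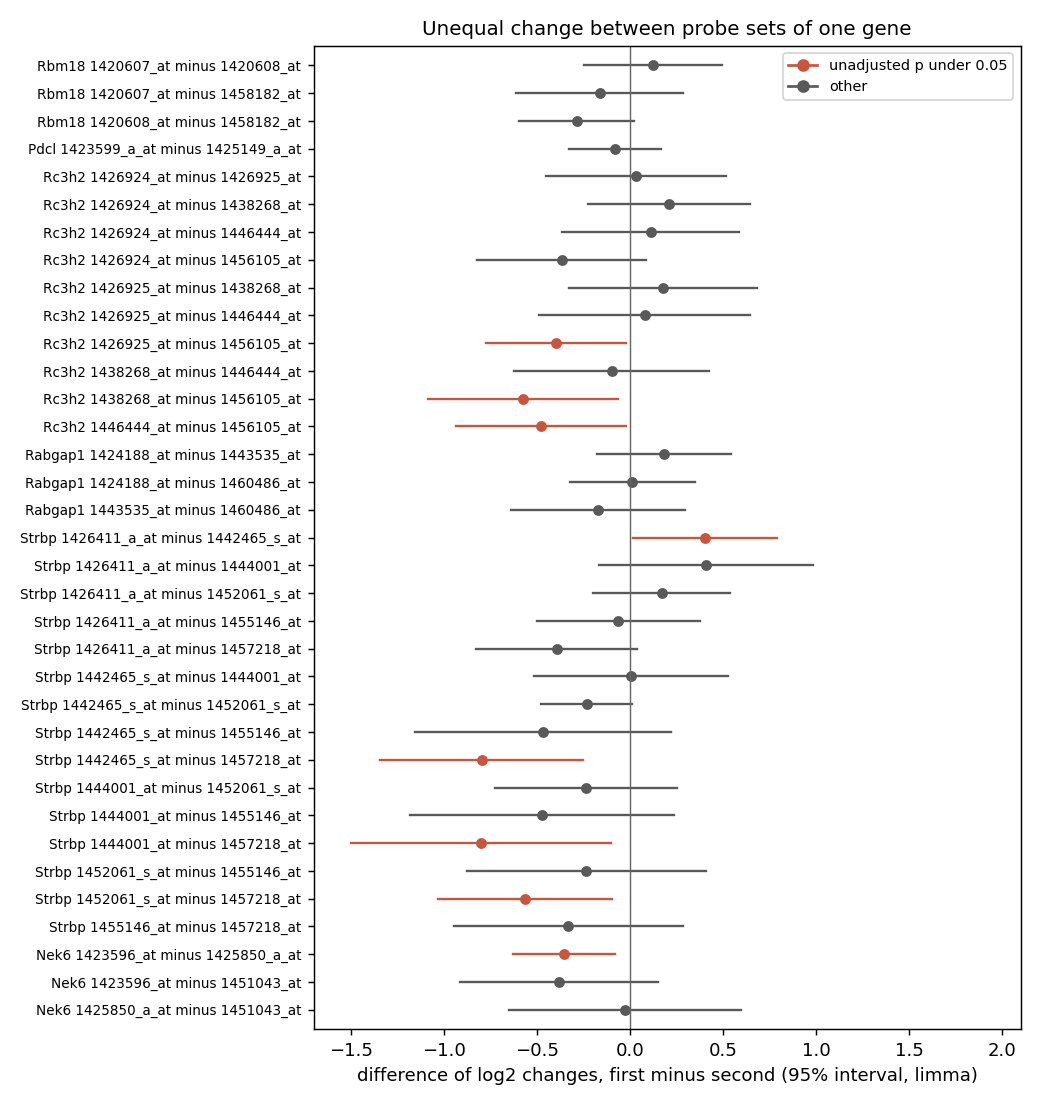
Difference between the log2 changes of 2 probe sets of the same gene, for the 35 pairs of the 6 genes with more than 1 probe set, with its 95% interval from limma (n = 4 arrays per genotype). The 8 coloured pairs have an unadjusted p under 0.05 and belong to Rc3h2, Strbp and Nek6, and those of Rbm18, Pdcl and Rabgap1 all include 0.

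The 10 genes were then set in the wider order of chromosome 2, and a gene was read from the brightest of its probe sets. Among the 25 measured genes on each side of Ptgs1, 50 in all, Rbm18 was the only gene with an unadjusted p under 0.05 (2%, against 9.21% of 12662 genes), and none passed after adjustment. With single arrays removed this count stayed at 1 for Cox-1 KO replicates 1 and 3 and was higher for the others. It was 5 for wild-type replicate 4, 4 for Cox-1 KO replicate 2 and 2 for wild-type replicate 1. It was 3 for wild-type replicates 2 and 3 and for Cox-1 KO replicate 4. The brightest probe set was chosen anew from the remaining arrays each time. A gene could therefore be read from another probe set, so these counts do not show the effect of the array alone. With every probe set of these genes the count was 7 of 128, where 8.81% of all probe sets tested had such a p. Among the 100 measured genes on each side the count was 23 of 200 (11.5%). Of the 200 genes, 8 (4%) had a p under 0.01, against 2.06% of all genes. The rest of chromosome 2 outside the window of 50, which includes the outer part of the 200, had 111 of 953 (11.6%) at 0.05. Its share at 0.01 was 2.41%. The median size of the log2 difference was 0.09 for the 10 genes, 0.09 for the 50 and 0.09 over all genes. On their brightest probe set 9 of the 10 neighbours had a negative sign. Of the other 40 genes of the window 16 had, and 6675 of all 12662 genes. For Nek6 the choice of probe set was close. It was read from 1423596_at (wild-type mean 983, Cox-1 KO mean 974), with a log2 difference of -0.02. Its 1425850_a_at was nearly as bright (means 857 and 1082), with 0.34 and an unadjusted limma p of 0.00372. The window count of 1 and the counts of negative signs therefore depend on this choice. By side, 8 of the 25 genes before Ptgs1 and 17 of the 25 after it were negative, and no difference between these shares was tested.

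Of these other 40 genes, none had an unadjusted p under 0.05. The smallest p was that of Dab2ip, a Ras GTPase-activating protein, with 1802, 1515, 1612 and 2071 in wild-type and 2411, 1689, 2226 and 2115 in Cox-1 KO uterus (log2 difference 0.27, limma adjusted p = 0.572). Hc, the complement component C5, followed at 0.34 (adjusted p = 0.584), then Acvr2a, an activin receptor, at 0.19 (0.602). Lhx6, a LIM homeobox gene that lies between Ndufa8 and Rbm18, had a log2 difference of 0.36 on 1425094_a_at and of -0.36 on the dimmer 1422262_a_at, neither of which passed (limma adjusted p = 0.628 and 0.74). Gsn, the actin-severing gelsolin, was at 0.08 (0.643), and Psmb7, a proteasome subunit and the next measured gene after Nek6, was at -0.09 (0.646). Dennd1a, between Strbp and Nek6, had a log2 difference of 0.12 (0.878).

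**Figure D4:**
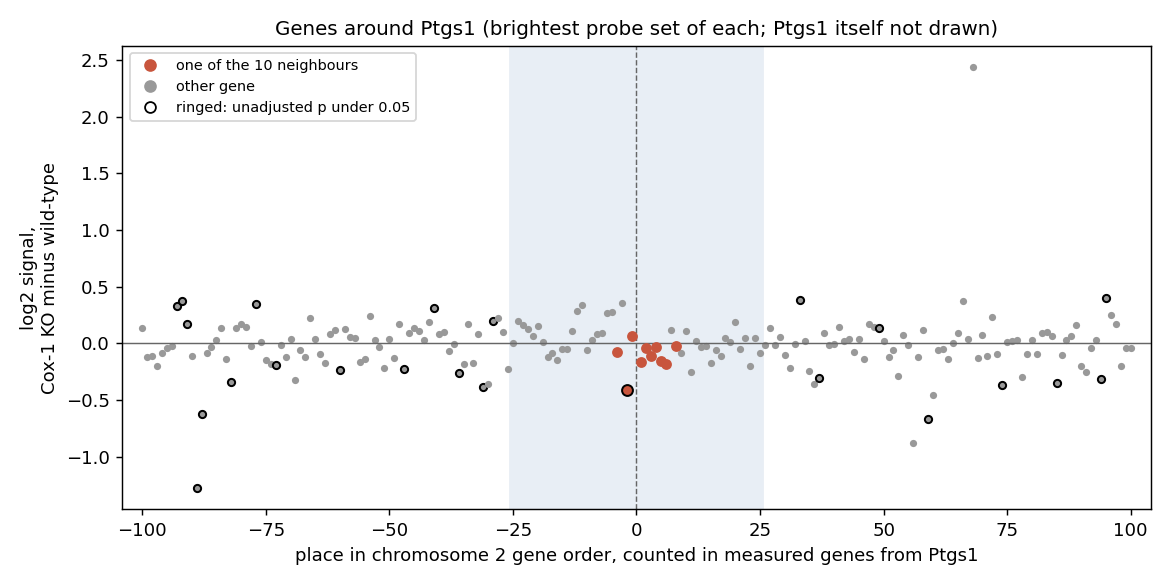
Log2 difference of signal, Cox-1 KO minus wild-type, of the 100 measured genes on each side of Ptgs1, each on its brightest probe set and placed by its order on chromosome 2 (Ptgs1, at -6.55, is not drawn). The 10 neighbours are coloured, genes with an unadjusted p under 0.05 are ringed, and Rbm18 is the only ringed gene in the shaded window of 25 genes on each side.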

How the data were processed

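Uterine RNA of 8 mice was labelled in a single cycle and hybridized to Affymetrix mouse arrays. The deposited values are signal intensities that the authors computed with MAS5 and scaled on each array to a target of 1000, in whole numbers, and 28000 probe sets were analysed. Detection calls were not used here. Each array had a median signal of 731 to 757, and arrays correlated at 0.944 to 0.982. Genes were named from the platform annotation (23579 probe sets with 1 symbol, 653 with several, 3768 with none) and updated through RefSeq gene IDs, which matched 23521 of 24232. Ptgs1 was named from the study's additional file.

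A floor of 1 (applied to 1 value) preceded the log2 step. After removal of 60 array controls, probe sets that reached 100 on 4 or more arrays were tested with limma 3.58.1 in R 4.3.3, with a trend on mean signal, Benjamini-Hochberg adjustment over 26444 probe sets and a threshold of 0.05. This replaces the t-test of the methods, which was run as an alternative. Exact permutation tests were two-sided over 70 assignments. Scripts were tested on simulated data. Figures were drawn in Python 3.11.15 with matplotlib 3.10.9. Every probe set of the 10 genes among the 28000 analysed is reported. Among other genes of the window of 25 on each side the 6 with the smallest p and those lying between the 10 are named. The members and lists were chosen with earlier results of these data known. The number of arrays limits the precision, and the samples are taken as separate mice from the methods.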

Additional observations from a re-analysis of the deposited data

Results flagged for a closer look

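Of 52 groups of 4 arrays (26 probe sets in each genotype), 2 held an array set apart from the rest, where chance marks about 1 group in 20. For Rc3h2 1426925_at wild-type replicate 3 had a signal of 354, above the 214 to 232 of the others, a gap of 0.871 of the whole range. For Nek6 1425850_a_at wild-type replicate 2 had 780 against 875 to 892, a gap of 0.848 of the range. Without it the log2 difference of Nek6 1425850_a_at was 0.29, and without wild-type replicate 3 that of Rc3h2 1426925_at was 0.09.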

How the results depend on the processing

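No probe set of the 10 genes passed an adjusted p of 0.05 under any of the 21 settings, and no pair of probe sets did under those run for pairs. The lowest adjusted p of Rbm18 1420608_at was 0.092 (limma), with signals under 100 set to 100. With limma it was 0.273 under a replicate block and 0.348 without the trend, and with the methods' t-test it was 0.765. The log2 difference of this probe set ran from -0.45 to -0.39. At an unadjusted p the count of 3 probe sets became 6 under a replicate block and 5 when the trend was dropped. It became 1 without the 4 arrays high in yolk sac transcripts, a setting chosen after seeing the data, in which the lone Cox-1 KO array is assumed to vary like the wild-type ones. It ran from 3 to 7 when each array was left out in turn, the count of groups that did not overlap from 3 to 6, the count of pairs from 3 to 10 and that of genes in the window from 1 to 5. The shares over all probe sets, pairs and genes were not recomputed for these counts. With an array left out, the count of groups that did not overlap could only stay or rise. For the window the brightest probe set of each gene was chosen anew from the remaining arrays. The window count was 1 of 50 in the main fit, 7 of 128 with every probe set and 23 of 200 with 100 genes on each side. The methods' t-test gave 3 at its p and 0 after Benjamini-Hochberg adjustment, and none of these had the methods' ratio of 1.5. Pairing by replicate number was not evident in the deviations from each genotype's mean. Same-numbered deviations correlated at -0.254, 0.219, -0.181 and 0.165, and wild-type replicate 1 correlated best with Cox-1 KO replicate 2, at 0.285. Per the methods, samples were processed side by side in balanced groups, and these correlations cannot exclude shared handling of same-numbered samples. Of 543 recomputed log2 differences, 523 kept their sign and side of the threshold, none passed and 20 changed sign. The settings of no filter, filter at 200, no trend, robust fit, replicate block and the methods' t-test leave the log2 difference itself unchanged. No sign could change there, and these values are counted among the 523. With quantile normalization and median centring, Strbp 1426411_a_at became 0.0065 and 0.0036. With yolk sac markers as a covariate, Rc3h2 1446444_at became 0.0174, Strbp 1455146_at -0.13 and Nek6 1423596_at 0.0116. Without the 4 arrays, Mrrf became -0.0846, Rc3h2 1426924_at 0.0071, Zbtb6 0.0616 and Rabgap1 1460486_at 0.0352. Leaving out single arrays, the ranges that cross 0 were -0.115 to 0.0222 for Zbtb26, -0.15 to 0.207 for Strbp 1455146_at, -0.201 to 0.0911 for Rc3h2 1426925_at, -0.0974 to 0.0502 for Strbp 1426411_a_at, -0.0677 to 0.00322 for Rc3h2 1426924_at and -0.0711 to 0.0541 for Nek6 1423596_at. The causes were not tested. A filter at 200 left 24 of the 26 probe sets, and low signal limits the dimmest of them.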
